A study of Bos grunniens and Bos grunniens x Bos taurus with 6 samples.

Results

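The testis of a sexually mature yak (Bos grunniens) of 4 years was compared with that of adolescent yaks of 18 months in single-cell RNA libraries made on the 10x Genomics platform. The mature side is 1 library (replicate 5), labelled as taken after sexual maturity, and the adolescent side is 2 libraries (replicates 3 and 4), labelled as adolescence and as before sexual maturity. All 3 come from testis tissue that was frozen, thawed, digested with collagenase IV, hyaluronidase and trypsin, and kept in culture medium before loading. A barcode counted as a cell if it held at least 300 genes and at most 20% of its UMIs (unique molecular identifiers, each standing for 1 captured RNA molecule) on features of the mitochondrial genome. This left 13256 of the 31071 cells of the whole series, with 4800 in the 4-year library, 4245 in replicate 3 and 4211 in replicate 4. The series asks how cell fates change while the yak testis develops.

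With 1 mature library there was no replicate on that side, so no difference below has a test. A difference is given as the ratio of the 4-year library to each 18-month library in turn, with an exact 95% interval that covers counting error only. The spread between the 18-month libraries is the one available measure of how much libraries of 1 age differ. The labels do not say whether these came from separate animals. They were far apart, at a chi-square of 170.7 per degree of freedom over 18019 genes, and counted as separate samples. The 3 libraries held 14385989, 18278958 and 15086407 UMIs in kept cells (4 years, replicate 3, replicate 4), with a median of 1484.5, 1883 and 2132 UMIs per cell. Of barcodes with at least 300 genes, the mitochondrial filter had removed 17.9% at 4 years, against 37.97% and 20.3% at 18 months. At most 15 barcode sequences were shared by any pair of the libraries. A tag in the labels calls the samples "Germ cell", but the cells of all 3 libraries also held endothelial, muscle and immune classes with their markers.

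Sperm form in the seminiferous tubules, where spermatogonia divide at the base, enter meiosis as spermatocytes and leave it as round spermatids. Spermatids then build an acrosome and a flagellum and pack their DNA with transition proteins. Sertoli cells, the somatic cells of the tubule, carry germ cells through these steps, and stroma, peritubular muscle, vessels and immune cells lie between the tubules. At puberty meiosis starts and the first waves of germ cells reach the later stages.

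The 4-year library held cells named for every germ stage up to the spermatid, and almost all germ cells of the 18-month libraries were named spermatogonium-like. Cells were clustered on all 6 libraries of the series, and a cluster was called by a cell type, as "-like", from lists of marker genes. In the spermatogonium-like clusters 15, 26 and 32, spermatocyte markers came second, at mean log2 folds of 1.54, 1.93 and 1.66. Whether early meiotic cells lie among them was not tested. Spermatid-like cells were 16.8% of the 4-year library (15.8–17.9%; 808 cells). None was seen among 4245 and 4211 cells at 18 months, which allows shares of up to 0.0707% and 0.0712%. Spermatocyte-like cells were 18.04% of the 4-year library (16.96–19.16%, 866 cells), against 3 cells in replicate 3 and 14 in replicate 4. Spermatogonium-like cells were 4.56% (3.99–5.19%, 219 cells) at 4 years, against 18.4% (17.2–19.6%) and 14.4% (13.3–15.5%) at 18 months. That 4-year share was 1.36% with doublets removed, 1.03% with up to 40% of UMIs on mitochondrial features and 7.44% at 500 genes and 10%. Among germ cells they were 11.6% of 1893 at 4 years, against 99.6% of 783 and 97.7% of 620. All germ cells together were 39.4% of the 4-year library (38.05–40.8%), against 18.45% and 14.7%, and that share depended on the barcode filter, at 61.7% where cells needed 500 genes and no more than 10% on mitochondrial features.

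The later germ cells also held more than their share of the RNA. The spermatocyte-like cells gave 37.8% of all UMIs of the 4-year library and the spermatid-like cells 21.0%. At 18 months the spermatogonium-like cells gave 45.65% of the UMIs in replicate 3 and the Sertoli-like cells gave 42.3% in replicate 4. Thinned to 1000 UMIs per cell, spermatid-like cells had a median of 668 genes and spermatocyte-like cells 634, and spermatogonium-like cells had 614 at 4 years, against 671 and 590 at 18 months. Spermatid-like cells had the smallest median share of mitochondrial UMIs of any class at 4 years, 0.909%, next to 2.74% in spermatocyte-like cells and 6.56% in spermatogonium-like cells.

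Of the somatic classes, Sertoli-like and stroma-like cells stood apart most. No cell of the 4-year library was named Sertoli-like (0 of 4800, which allows up to 0.0625%), against 4.17% and 25.98% at 18 months. Stroma-like cells numbered 3 at 4 years, against 1728 (40.7%) and 1245 (29.6%) at 18 months. Those numbers rest on the naming rule, because clusters 40 and 41, with 67 and 213 cells of the 4-year library and none of any other, met no name and are described at the end. Under that stricter filter 0.891% of the 4-year library was Sertoli-like, against 2.57% and 24.9% at 18 months, and 2.05% was stroma-like, against 15.7% and 7.70%. With the 3 libraries clustered alone 4.52% was stroma-like, against 40.9% and 29.9%. Endothelial-like cells were 33.35% of the 4-year library (32.0–34.7%), against 18.5% (17.4–19.7%) and 17.3% (16.1–18.4%). The direction turned at the stricter filter, with 21.4% at 4 years, against 39.04% and 28.7%. Lymphocyte-like cells were 17.6% (16.5–18.7%) at 4 years, against 13.3% and 7.385% at 18 months. Mural-like cells, the smooth muscle and pericytes, were 2.23% at 4 years (107 cells), against 3.56% and 2.97%. The mural share at 4 years was 0.0439% (2 cells) with doublets removed and 0.267% at the stricter filter. With up to 40% of UMIs on mitochondrial features allowed, it was 5.29%, above the 4.50% and 3.50% at 18 months. Macrophage-like cells were 1.23%, against 1.27% and 1.54%. Shares within a library add up to a whole, so a class that takes more of it lowers the others, and digestion or the mitochondrial filter can set them too.

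**Figure D1:**
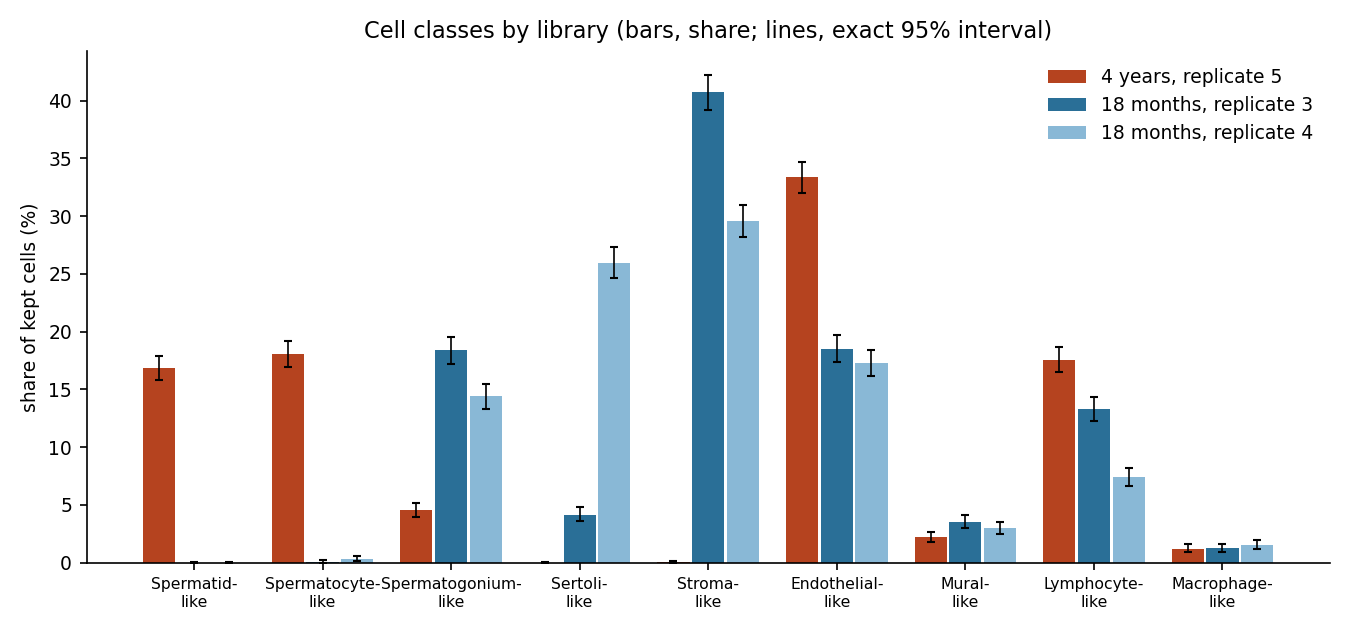
Percent of kept cells in each named class in the 4-year library and in the 18-month libraries (replicates 3 and 4), with exact 95% intervals for counting error. Spermatid-like and spermatocyte-like cells make up 16.8% and 18.04% of the 4-year library and are at or near 0 at 18 months. Stroma-like cells stand high in both 18-month libraries, and Sertoli-like cells in replicate 4 (25.98%, against 4.17% in replicate 3).

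Summed over all kept cells of a library, 14096 genes had at least 50 UMIs over the 3 libraries, and levels were given as CPM, the UMIs of a gene scaled to the total of the library. A gene was called when its CPM was at least 4-fold higher, or at least 4-fold lower, at 4 years than in both 18-month libraries. By this rule 1478 genes were higher, 10.5% of those measured, and 511 were lower, 3.63%. Replicates 3 and 4 themselves stood at least 4-fold apart for 1489 genes, 10.6%. The filter takes the sum over libraries, so 97 of the higher genes with no UMI at 18 months passed it through the 4-year library alone. In such sums, fewer cells of a type and less RNA per cell cannot be told apart. With the spermatocyte-like and spermatid-like cells of the 4-year library left out, 463 genes were higher and 280 lower. Scaling by edgeR's TMM factors in place of library totals would move every log2 ratio by 0.52 up against replicate 3 and by 0.261 down against replicate 4.

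Genes of spermatids were among those with the greatest ratios. HMGB4, an HMG-box protein of the spermatid nucleus, had 7369 UMIs (512 CPM) at 4 years and no UMI in either 18-month library. It was at least 3121-fold higher than replicate 3 and at least 2576-fold higher than replicate 4, taking 3 UMIs per library as the floor for a count of 0. ACRV1, the acrosomal vesicle protein also called SP-10, had 3927 UMIs (273 CPM) at 4 years and likewise none at 18 months, and was at least 1663-fold and 1373-fold higher. TEX33, a gene named for its expression in testis, had 4048 UMIs (281 CPM), against 1 UMI in each 18-month library. Its ratios were 5143 (923–203200) and 4245 (761–167710), whose width comes from those single UMIs. PDHA2, the testis form of a pyruvate dehydrogenase subunit, had 4258 UMIs (296 CPM) at 4 years, against 1 and 0. PRSS37, a serine protease relative that mouse sperm need to reach the oviduct, had 2654 UMIs (184 CPM), against 0 and 0. The others of the 15 with the greatest smaller ratio were SMCO2, TMEM210, TMEM89, RNF151, IQCF5, TEX43, TEX47, IRGC, NAGS and C19orf71, with 1356 to 6000 UMIs at 4 years and 0 to 6 in any 18-month library. NAGS makes the activator of the urea cycle and is known from the liver.

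Genes of the acrosome, the enzyme-filled cap of the sperm head, were called higher in 14 of 14 cases, with a median log2 ratio of 7.71 against replicate 3 and 8.34 against replicate 4, next to −0.53 and 0.29 for all genes measured. The share called higher over all genes measured was 10.5%. ZPBP, which takes part in binding the egg coat, had 772 CPM at 4 years, against 24.6 and 12.9 at 18 months. The ratios were 31.4 (28.6–34.6) and 60.1 (52.1–69.6), so the acrosome list was not at 0 in the adolescent libraries. SPACA1, a membrane protein of the acrosome, had 197 CPM, against 12.3 and 6.36. Its level at 4 years was 15.99-fold (13.96–18.4) and 30.9-fold (25.2–38.3) that at 18 months. SPATA16, known in human for a round-headed sperm defect, had 4132 UMIs at 4 years, against 50 and 7. ZPBP2 had the smallest ratios of the list, 6.38 (5.18–7.91) and 14.7 (10.6–20.9), from 547, 109 and 39 UMIs. Parts of the skeleton around the acrosome were all but missing at 18 months, where ACTL7A and ACTL9 had no UMI and CCIN and ACTRT2 had 1 between the libraries each.

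Of 22 flagellum and axoneme genes, 15 were called higher and none lower (median log2 3.23 and 4.73), next to 10.5% and 3.63% of all genes measured. TEKT2, a tektin that runs along the microtubule doublets, had 381 CPM at 4 years, against 5.58 and 2.65, giving ratios of 68.2 (56.1–83.8) and 144 (105–201). ODF1, of the outer dense fibres that stiffen the tail, had 372 UMIs, against 0 and 0, and was at least 158-fold and 130-fold higher. ODF2, which centrosomes of other cells also use, had 326 CPM, against 45.6 and 16.2, and was 7.15-fold (6.64–7.70) and 20.1-fold (17.7–22.9) higher. SPEF2, DNAH1, DNAH8, CFAP44, CFAP69, RSPH4A and TEKT5 did not reach 4-fold against both libraries.

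Sperm ion channels and motility genes were called higher in 9 of 13 cases (median log2 3.72 and 5.08), next to 10.5% of all genes measured. CRISP2, a secreted protein of the acrosome and tail, had 797 CPM at 4 years, against 5.03 and 1.79, and its ratios were 158 (129–197) and 446 (306–676). SLC9C1, the sodium-proton exchanger of sperm, had 779 UMIs at 4 years, against 8 and 5. CATSPER3, a pore subunit of the sperm calcium channel, had 160 UMIs, against 5 and 1. Its partner CATSPER4 had 8 UMIs at 4 years, against 3 and 46, so that the 18-month libraries lay on either side of the mature one. Among 7 genes of sperm energy metabolism, 5 were called higher (median log2 7.55 and 8.12), next to the same 10.5%. PGK2, the phosphoglycerate kinase of germ cells, had 983 UMIs at 4 years, against 3 and 1. GAPDHS, the sperm form of the glycolytic enzyme GAPDH, had 66.5 CPM, against 24.0 and 7.62. At 2.77-fold (2.47–3.11) and 8.73-fold (7.19–10.7) it met the rule against replicate 4 alone.

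Of the sperm chromatin genes 3 of 4 were called higher, HMGB4, TNP1 and BRDT, next to 10.5% of all genes measured. TNP1, the transition protein that replaces histones in elongating spermatids, had 509 UMIs at 4 years, against 2 and 0. CHD5, a remodeller of spermatid chromatin in mouse, had 55.3 CPM, against 41.1 and 7.95, and was not called. Kinases and regulators of spermatids were called higher in 7 of 11 cases (TSSK1B, TSSK3, TSSK4, SPEM1, CALR3, CLGN, SPATA18), next to the same 10.5%. CLGN, the chaperone calmegin that folds sperm surface proteins, had 2006 CPM at 4 years, against 162 and 119, so its message was already present in adolescence. The ratios were 12.3 (11.9–12.8) and 16.8 (16.04–17.7). The transcription factors and regulators CREM, SOX30, RFX2 and TAF7L were not called. CREM, which switches on spermatid genes in mouse, had 156 UMIs at 4 years, against 154 and 2. SOX30 had 28.01 CPM, against 8.70 and 2.72, at 3.22-fold (2.67–3.89) and 10.3-fold (7.46–14.6).

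**Figure D2:**
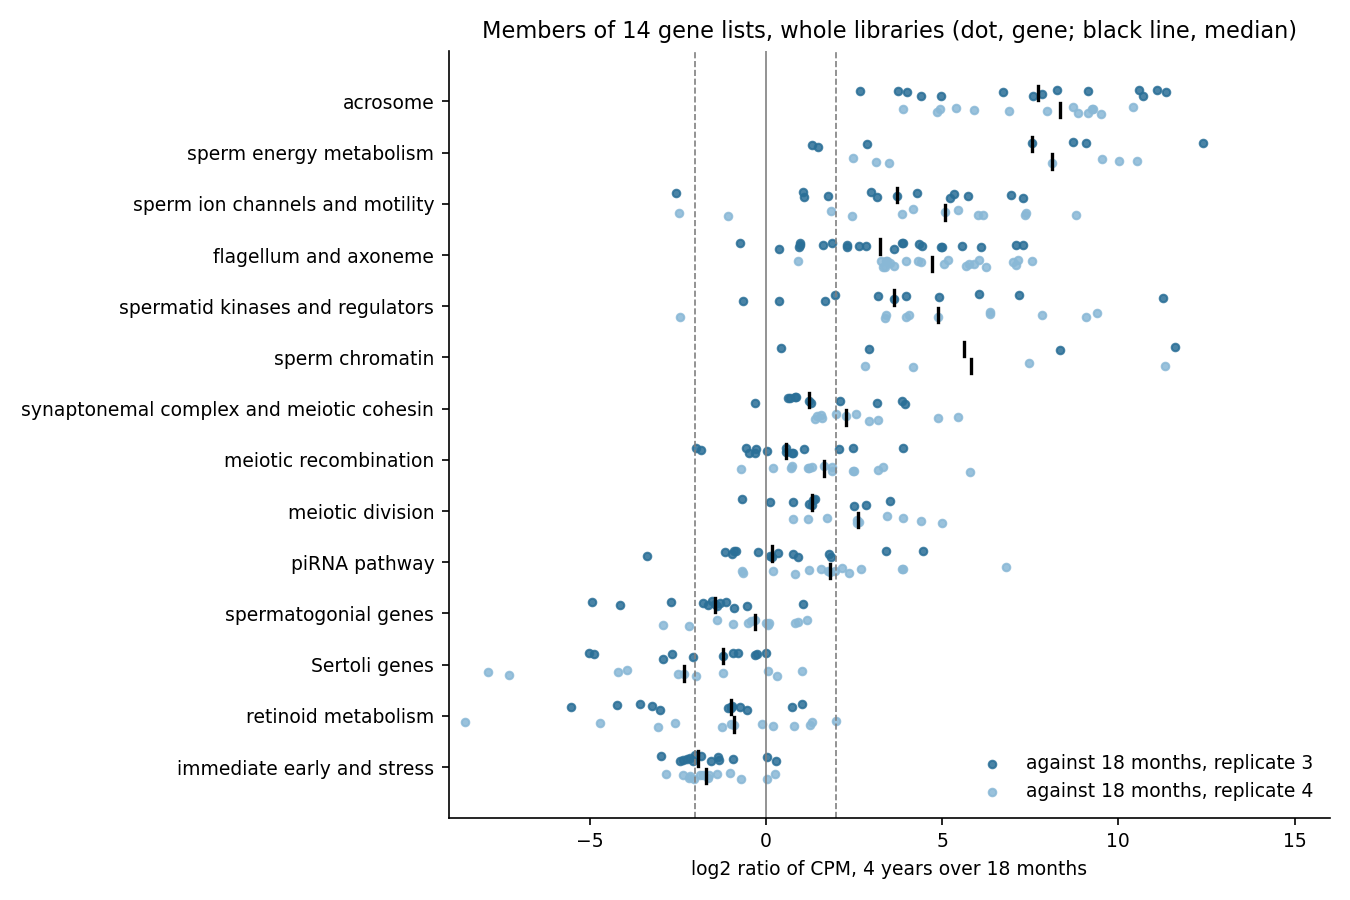
Log2 ratio of the 4-year library over each 18-month library for every measured member of 14 gene lists, in CPM of whole libraries. Black lines are list medians and dashed lines mark 4-fold. The acrosome list has medians of 7.71 and 8.34, and the immediate early and stress list −1.93 and −1.72.

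Of 11 synaptonemal complex and cohesin genes, 4 were called higher (SYCP3, SYCE1, SYCE2, HORMAD2) and none lower, with a median log2 ratio of 1.23 and 2.27. Of all genes measured, 10.5% were called higher and 3.63% lower. SYCE1, a central element protein of the complex, had 281 CPM at 4 years, against 19.5 and 6.43. It was 14.4-fold (12.96–16.1) and 43.8-fold (35.8–54.1) higher. SYCP3, the axis protein, had 88.0 CPM, against 20.4 and 18.3, with ratios of 4.32 (3.85–4.87) and 4.81 (4.22–5.50). SYCP1, its partner in the transverse filaments, had 113 CPM at 4 years, which lay between the 139.7 CPM of replicate 3 and the 43.2 CPM of replicate 4. SMC1B, the meiotic cohesin, had 311 CPM, against 171 and 78.5, below 4-fold in both. SYCP1, SMC1B and TEX12 thus stayed within 4-fold between libraries that held 866, 3 and 14 spermatocyte-like cells.

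Recombination genes were called higher in 3 of 15 cases (DMC1, SPATA22, MEIOB), and meiotic division genes in 3 of 10 (CCNA1, CDC20, NEK2). Over all genes measured the share was 10.5%. DMC1, the recombinase of meiosis, had 49.1 CPM at 4 years, against 8.81 and 4.91. MEIOB, which binds single-stranded DNA beside SPATA22, had 80.8 CPM, against 5.42 and 1.46, with ratios of 14.9 (12.1–18.5) and 55.4 (36.4–88.7). TEX15, another gene of recombination and retrotransposon silencing, had 66.3 CPM, against 237 and 57.2, so replicate 3 stood above the mature library. CCNA1, the cyclin of the first meiotic division in male germ cells, had 179.6 CPM at 4 years, against 15.6 and 5.63, and was 11.5-fold (10.2–13.1) and 31.9-fold (25.7–40.1) higher. AURKA, the spindle kinase that dividing cells of all kinds use, had 149.7 CPM, against 64.6 and 23.9, and was not called.

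Within the piRNA pathway, which silences transposons through small RNAs, 2 of 15 genes were called higher, next to 10.5% of all genes measured. PIWIL1, the Piwi protein of spermatocytes and spermatids, had 857 UMIs (59.6 CPM) at 4 years, against 50 and 8. PIWIL4, the Piwi protein of early spermatogonia, had 6.74 CPM, against 69.5 and 10.6, at 0.0970 (0.0781–0.119) and 0.636 (0.489–0.823) times the adolescent levels. Of 13 spermatogonial genes none was called higher and 1 lower, next to 3.63% lower over all genes measured. This was RET, with 8 UMIs at 4 years, against 311 and 38. UCHL1, a ubiquitin hydrolase of spermatogonia, had 364 CPM, against 806 and 953. DMRTB1, a factor of the step from mitosis to meiosis, had 55.5 CPM, against 26.7 and 24.7, about 2.08-fold (1.86–2.33) and 2.25-fold (1.99–2.55) higher.

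The germ cells of the mature library lay in 5 main clusters, whose levels show where each gene list stood highest. The clusters were built from the same counts, so no test can be made on them. The spermatogonium-like ones were 39 (169 cells) and 26 (41), the spermatocyte-like ones 33 (403) and 36 (463), and the spermatid-like one 37 (808). Median depth was 1089, 9633, 2858, 2914 and 1480.5 UMIs in that order. UCHL1 had 3900 and 2198 CPM in clusters 39 and 26, 1087 CPM in cluster 33, and 20.1 and 40.8 CPM in clusters 36 and 37. DMRT1, which keeps spermatogonia from entering meiosis in mouse, had 189, 137 and 216 CPM in the first 3 and under 2 CPM in the others. PIWIL4 was highest in cluster 26, at 163 CPM, and had 39.2 CPM in cluster 39.

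Of 11 synaptonemal genes 8 had their highest level in cluster 33, as did 10 of 15 recombination genes. DMC1 did not, with 164.5 CPM in cluster 37 and 76.97 CPM in cluster 33. SYCP3 had 593 CPM in cluster 33, 4.37 CPM in cluster 36 and 2.32 CPM in cluster 37. ZCWPW1, a reader of histone marks at recombination sites, had 839 CPM in cluster 33 and under 10 CPM in clusters 36 and 37. The 3 and 14 spermatocyte-like cells of the 18-month libraries all lay in cluster 33 and none in cluster 36.

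Cluster 36 held 4-year cells. Of 10 meiotic division genes 6 were highest there, with CCNA1 at 455 CPM, against 28.5 CPM in cluster 33. HORMAD2 and SYCE1 were also highest there, at 379.8 and 650.2 CPM, unlike SYCP3. Several sperm genes already stood high in these cells. ZPBP had 1635 CPM in cluster 36 and 1353 CPM in the spermatid-like cluster, SPATA16 had 691 and 430 CPM, and CLGN had 5046 and 2537 CPM. In all, 4 acrosome genes had their highest level in cluster 36 and 10 in cluster 37.

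A second set of acrosome genes stood high in the spermatid-like cluster alone among the 5. ACRV1 had 1174 CPM in cluster 37 and 27.1 CPM in cluster 36. SPACA1 had 819 and 25.03 CPM, and CCIN, a calicin of the sperm head skeleton, had 597 and 12.2 CPM. The kinase TSSK1B followed them, with 567 and 6.99 CPM. In the flagellum list 9 genes were highest in cluster 36 and 12 in cluster 37. RSPH1, of the radial spokes, had 395 CPM in cluster 36 and 107 CPM in cluster 37. TEKT2 had 404 and 1134 CPM. Among chromatin genes BRDT, which reads acetylated histones, was highest in cluster 36 at 305 CPM, and HMGB4 and TNP1 in cluster 37, at 2167 and 149.9 CPM, against 34.6 and 2.91 CPM in cluster 36.

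**Figure D3:**
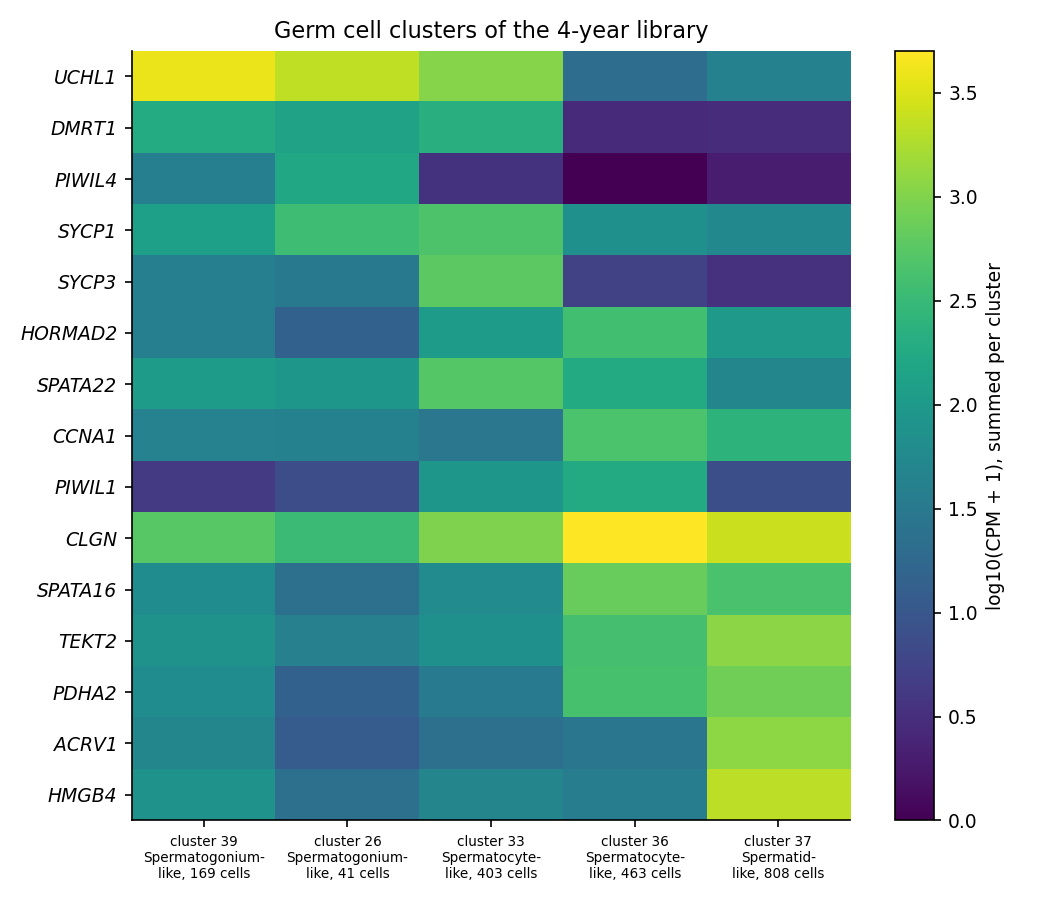
Level of 15 genes, as log10 of CPM plus 1, in the 5 germ clusters of the 4-year library, from spermatogonium-like (39, 26) through spermatocyte-like (33, 36) to spermatid-like (37). SYCP3 is high in cluster 33 (593 CPM), CCNA1 in cluster 36 (455 CPM) and ACRV1 in cluster 37 (1174 CPM).

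Genes of Sertoli cells were among those lower at 4 years. INHA, the alpha subunit of inhibin by which Sertoli cells restrain FSH, had 169 UMIs (11.7 CPM) at 4 years, against 6309 (345 CPM) and 41604 (2758 CPM), at 0.0340 (0.0290–0.0397) and 0.00426 (0.00364–0.00495) times the adolescent levels. The adolescent libraries differed from each other, too, as did their shares of Sertoli-like cells (4.17% and 25.98%). Of 11 Sertoli genes measured, 4 were called lower, INHA, GATA4 and FSHR among them, and none higher, next to 3.63% and 10.5% of all genes measured. FSHR, the receptor through which FSH acts on Sertoli cells, had 2 UMIs at 4 years, against 83 and 327. SOX9, the factor that sets Sertoli fate, had 35.9 CPM, against 68.9 and 201, and was not called. Its ratios were 0.521 (0.469–0.577) and 0.178 (0.162–0.196).

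TFF2, a trefoil peptide, had no UMI at 4 years, against 293 and 1130, and was at least 76.9-fold and 359-fold lower. CRABP2, which carries retinoic acid to the nucleus, had 2 UMIs (0.139 CPM), against 117 (6.40 CPM) and 785 (52.0 CPM). With it, 4 of 13 genes of retinoid metabolism were called lower and none higher, next to 3.63% and 10.5% of all genes measured. RBP4, the retinol carrier, had 16.1 CPM at 4 years, against 149.8 and 95.2, at 0.107 (0.0933–0.123) and 0.169 (0.146–0.194). STRA6, the receptor for RBP4, had 4 UMIs, against 96 and 109, and ALDH1A3, which makes retinoic acid, had 4, against 60 and 35. ALDH1A2, the enzyme for the same step in the adult testis of mouse, lay on the other side, with 67.9 CPM, against 40.7 and 17.1. Its ratios were 1.67 (1.52–1.84) and 3.97 (3.46–4.57), and it was not called.

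INHBA, the subunit of activin A, was called lower among 20 genes of the TGF-beta, activin and BMP list, next to 3.63% of all genes measured. It had 104 UMIs (7.23 CPM) at 4 years, against 2351 (129 CPM) and 2137 (142 CPM). Replicates 3 and 4 lay close together, and the ratios were 0.0562 (0.0457–0.0684) and 0.0510 (0.0415–0.0622). In the Notch and hedgehog list of 17, GLI1 was called lower and NOTCH4 higher, next to 3.63% and 10.5% of all genes measured. GLI1, a transcription factor of the hedgehog pathway, had 4 UMIs, against 210 and 29. PTCH1, the receptor for hedgehog, had 4.66 CPM, against 43.6 and 9.74, and was not called. NOTCH4, a receptor of vessels, had 18.8 CPM at 4 years, against 4.49 and 2.72. Within the mature library it had 56.7 CPM in spermatid-like and 20.9 CPM in endothelial-like cells, and none of 8 Notch and hedgehog genes was called in endothelial-like cells.

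Of 17 matrix genes 1 was called lower, and of 11 collagens 1, next to 3.63% of all genes measured. DCN, the proteoglycan decorin, had 16.3 CPM at 4 years, against 158 and 122, and COL5A1 had 6.26 CPM, against 51.1 and 30.2. IGFBP5 was called lower among 11 IGF genes, next to the same 3.63%, with 44 UMIs, against 252 and 467. IGFBP3 had 65.2 CPM, against 25.3 and 31.9, about 2.57-fold (2.30–2.88) and 2.04-fold (1.83–2.29) higher. SRD5A1, a reductase that turns testosterone into dihydrotestosterone, was called higher among 7 steroid genes, next to 10.5% of all genes measured. It had 1091 UMIs (75.8 CPM) at 4 years, against 48 and 38, and its ratios were 28.9 (21.6–39.4) and 30.1 (21.8–42.8). In the mature library it stood at 158.6 and 140.3 CPM in clusters 36 (spermatocyte-like) and 37 (spermatid-like), and at 8.81 to 19.6 CPM in the other 3 main germ clusters.

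Of 14 immediate early and stress genes, 4 were called lower, next to 3.63% of all genes measured, with medians of −1.93 and −1.72. Immediate early genes switch on within minutes of a stimulus or of tissue handling, and the list also holds the chaperones HSP90AA1, HSPA8 and HSPH1. JUN had 951 CPM at 4 years, against 5190 and 4272, FOS had 458 CPM, against 1939 and 2329, and EGR1 had 25.3 CPM, against 199.5 and 180.0. JUN was at 0.183 (0.180–0.187) and 0.223 (0.219–0.227) times its adolescent level. The other lower genes of the 15 with the smallest ratios were SDSL, NRK, APOBEC3Z3, COL21A1, ROBO1, ARHGAP36, LRRC17, ARMH4, TMEM176B, MAP3K21 and NME3, with 3 to 55 UMIs at 4 years. No gene was called in the lists of interferon response, replication and mitosis, cytotoxic cells, smooth muscle, oxidative phosphorylation or glycolysis.

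Spermatid RNA was found in every class of the 4-year library with at least 20 cells, which leaves out stroma-like cells and the unnamed cluster 30. The 14 acrosome genes summed to 6311 CPM (6222–6402) in spermatid-like cells. They had 400.5 CPM (378–424) in endothelial-like cells at 4 years, against 0.769 CPM and 2.92 CPM in those cells at 18 months, and 480.9 CPM in lymphocyte-like cells at 4 years, against 23.7 and 18.3. In spermatogonium-like cells they summed to 286.9 CPM, against 96.5 and 76.8. Between 4.55% and 8.36% of the spermatid level was thus met in each other class or unnamed cluster of that size at 4 years. The exceptions were the spermatocyte-like cells (29.65%) and cluster 40 (15.05%). A gene called within a class was therefore set aside as possible free RNA (RNA outside cells that enters droplets) where its CPM on the higher side was under 20% of that of the class highest in the same library. The part of free RNA in the remaining calls was not tested.

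**Figure D4:**
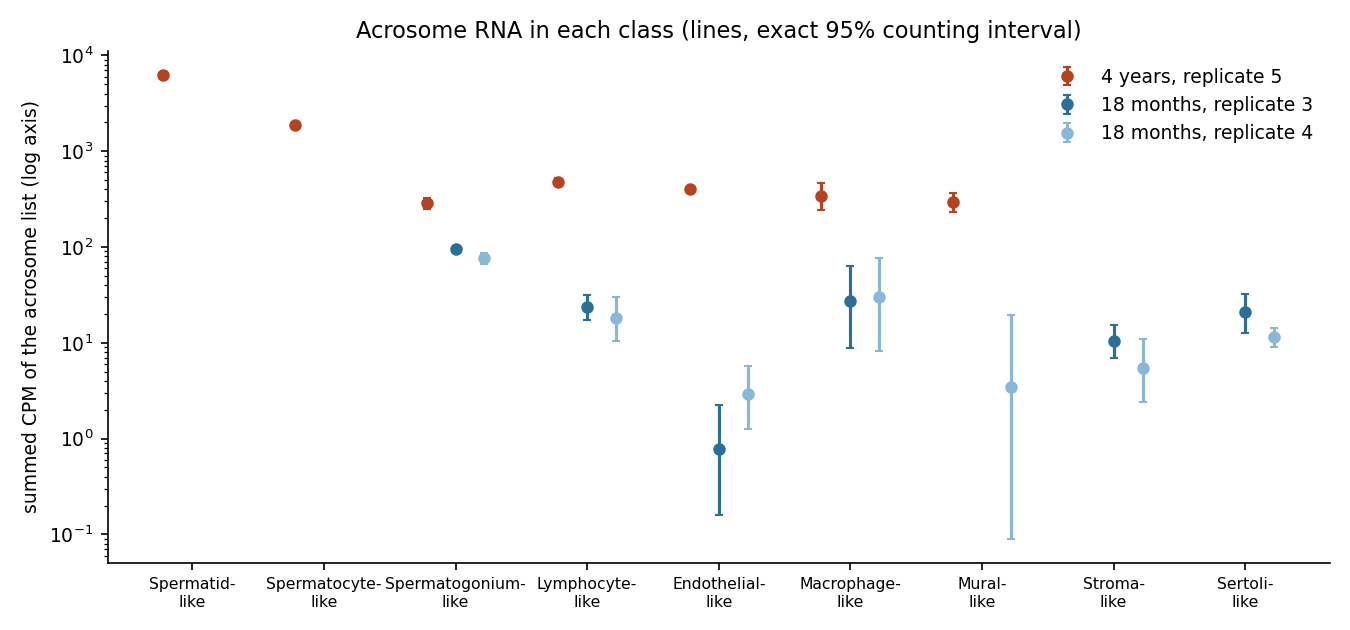
Summed CPM of 14 acrosome genes by class and library on a log axis, with exact 95% intervals; a class with no UMI is not drawn. In the 4-year library these genes reach 6311 CPM in spermatid-like cells and 400.5 CPM in endothelial-like cells, against 0.769 and 2.92 CPM in the endothelial-like cells at 18 months.

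Endothelial-like cells gave 9641 genes with at least 30 UMIs over the 3 libraries. Of these 638 (6.62%) were called higher at 4 years and 89 (0.923%) lower, and replicates 3 and 4 stood at least 4-fold apart for 4.72%. Possible free RNA took 570 of the higher and 20 of the lower calls and left 68 and 69. The cells came from different clusters at each age, 35 (1269 cells) and 38 (290) at 4 years, 14 (612) and 13 (114) in replicate 3, and 13 (601) in replicate 4. Clusters 35 and 38 held 4-year cells and no others, so age and library cannot be told apart in them. Median depth was 1395 UMIs at 4 years, against 3860 and 2894, and the median mitochondrial share was 11.85%, against 7.60% and 5.64%.

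Genes known from lymphatic vessels were among the calls. MMRN1, a multimerin of lymphatic endothelium, had 795 UMIs (264 CPM) at 4 years, against 2 (0.513 CPM) and 54 (19.7 CPM), with ratios of 515 (142–4258) and 13.4 (10.2–17.99). RELN, the secreted protein reelin, had 224 UMIs (74.4 CPM), against 5 and 17, with ratios of 58.0 (24.5–180.4) and 12.0 (7.32–20.9). PROX1, the factor that sets lymphatic identity, had 41 UMIs, against 2 and 8. These 3 were the called members among 19 endothelial genes, next to 6.62% called higher of all genes measured in the class. GPX3, a secreted glutathione peroxidase, followed them with 148 UMIs, against 3 and 9, as did PTX3, a pentraxin, with 53, against 1 and 3.

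Several of these genes were not highest in endothelial-like cells at 4 years. RELN had 124 CPM and PROX1 25.2 CPM in spermatid-like cells, against 74.4 and 13.6 CPM in endothelial-like cells, and PTX3 was highest in cluster 41. Clusters 16 and 38 of this class were led by CCL21 and MMRN1. They held 18.1% of the endothelial-like cells at 4 years (16.3–20.1%, 290 of 1601), against 0 of 786 in replicate 3, which allows up to 0.382%, and 22 of 727 (3.03%, 1.91–4.55%) in replicate 4. Without them, a choice made after seeing the data, 544 genes were called higher and 91 lower. MMRN1 then had 13 UMIs at 4 years, against 2 and 6, with ratios of 9.80 (2.22–89.5) and 2.27 (0.804–7.27), and PROX1 had 2, against 2 and 1.

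Blood vessel genes of the class lay closer together. CA4, the carbonic anhydrase of capillaries, had 998 CPM at 4 years, against 2152 and 2733, at 0.464 (0.445–0.484) and 0.365 (0.350–0.381). It kept that side without clusters 16 and 38, at 0.538 and 0.418. KDR, the main receptor for VEGF, had 319.8 CPM at 4 years, against 203.6 and 101.8, and was 1.57-fold (1.43–1.73) and 3.14-fold (2.75–3.60) higher. PECAM1, an adhesion molecule of all endothelium, had 258 CPM, between 304 in replicate 3 and 199.6 in replicate 4. Among 13 matrix genes, TNC, LAMA2 and ELN were called higher, next to 6.62% of all genes measured in the class. Calls in gene lists were counted before the free RNA rule. LAMA2, a laminin chain, had 148 UMIs at 4 years, against 31 and 17, with ratios of 6.18 (4.18–9.42) and 7.92 (4.78–13.96). TNC had 38 UMIs, against 0 and 0, and was at least 16.4-fold and 11.5-fold higher. ZBTB16, a transcription factor that glucocorticoids induce, had 82.7 CPM, against 18.2 and 8.39.

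PSMB8, a subunit of the immunoproteasome that cuts peptides for MHC class I, was called lower in endothelial-like and in lymphocyte-like cells. In endothelial-like cells it had 53.1 CPM at 4 years, against 318 and 257, at 0.167 (0.141–0.197) and 0.207 (0.173–0.246). In lymphocyte-like cells it had 57.4 CPM, against 341 and 245, at 0.169 (0.131–0.214) and 0.234 (0.178–0.306). No other gene of the antigen presentation list was called in either class. Others lower in endothelial-like cells were NEDD8, the ubiquitin-like modifier, with 7 UMIs, against 231 and 93, and NME3, a nucleoside diphosphate kinase, with 5, against 123 and 72. The remaining named ones were CP, TSEN34, ZNF524, SERTAD1, IGF2BP2, COX14, ZNF32 and POP7. JUN had 3125 CPM in this class at 4 years, against 9768 and 6523, at 0.320 and 0.479. None of the 14 immediate early and stress genes was called within this class. CCDC60, CENPT, TMOD2 and DNAH8 were also among the higher, and U2 and Metazoa_SRP were too. The first 4 were highest in spermatocyte-like cells of that library, and CENPT, DNAH8, CCDC60 and TMOD2 stood here at 20.3%, 20.4%, 24.2% and 50.6% of that level. The names U2 and Metazoa_SRP cover 107 and 25 identifiers of near-identical small RNAs, so their counts are uncertain.

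In lymphocyte-like cells 6874 genes were measured, with 389 (5.66%) called higher and 103 (1.5%) lower, and 6.94% stood 4-fold apart between replicates 3 and 4. Possible free RNA took 372 and 43 of them. These cells lay in cluster 34 at 4 years (837 of 843), which held no other library, and in clusters 19 and 20 at 18 months. CD48, a receptor on leukocytes, was lower, with 72 UMIs (55.1 CPM) at 4 years, against 597 (322 CPM) and 310 (355 CPM), at 0.171 (0.132–0.219) and 0.155 (0.118–0.201). COX8A, a subunit of mitochondrial cytochrome oxidase, was lower with 15 UMIs, against 234 and 50, and TOMM7, of the mitochondrial import pore, with 15, against 217 and 50. APRT, SF3B5, LAMTOR4, C1QBP and CUEDC2 were lower too. OGN, a matrix gene of stroma, had 2 UMIs, against 122 and 68, and CRABP1, a retinoic acid carrier, had 8, against 126 and 46. In replicates 3 and 4, OGN stood here at 4.77% and 21.9% of the class highest in that library, and CRABP1 at 27.4% and 9.73%. Each thus passed the free RNA limit of 20% in a single 18-month library.

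No member of the cytotoxic and T cell list (14 measured) was called in lymphocyte-like cells, and its medians were −0.01 and −0.02. CCL5, the chemokine of effector T cells, had 7130.5 CPM at 4 years, against 2665 and 6546, and NKG7, of cytotoxic granules, had 1498 CPM, against 980.3 and 1652. GZMK, a granzyme, came nearest to a call, with 489 CPM, against 128 and 202, at 3.83-fold (3.29–4.46) and 2.43-fold (2.05–2.89). Of genes higher at 4 years, the named ones were CCDC136, GRK4, DRC3, TEX14 and U1, a name shared by 63 identifiers. GRK4, DRC3 and CCDC136 stood at 20.8%, 22.5% and 25.8% of their level in spermatid-like cells of the same library, and TEX14 at 31.0% of that in spermatocyte-like cells, close to the limit of 20%. TEX14, a protein of the bridges between germ cells, had 37 UMIs, against 9 and 6.

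**Figure D5:**
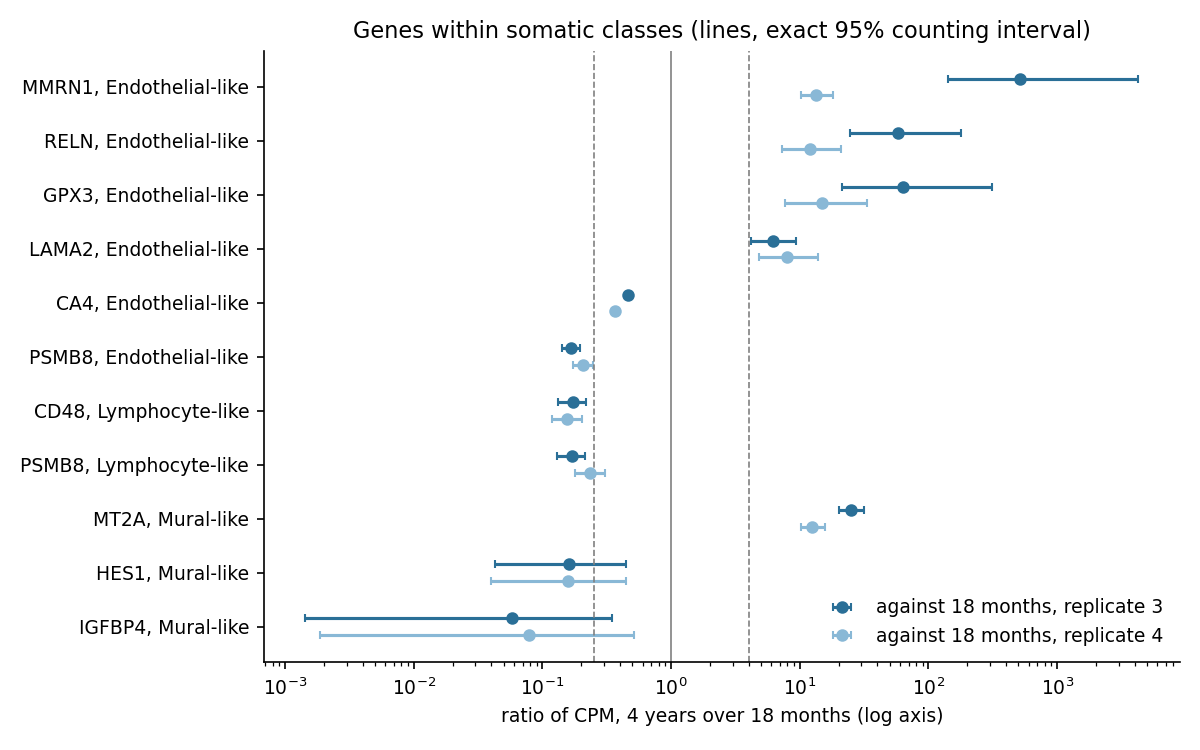
Ratio of the 4-year library over each 18-month library, with exact 95% intervals on a log axis, for genes of endothelial-like, lymphocyte-like and mural-like cells; dashed lines mark 4-fold either way. MMRN1 and MT2A lie above both libraries by at least 12.5-fold, PSMB8 lies below both in endothelial-like and in lymphocyte-like cells, and CA4 stays within 4-fold.

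Mural-like cells lay in the same clusters, 17 and 23, in all 3 libraries. With doublets removed 2 of the 4-year cells kept the name, so the values below have no check under that alternative. Of 3278 genes, 58 (1.77%) were called higher and 60 (1.83%) lower, and 5.25% stood 4-fold apart at 18 months. Set aside as possible free RNA were 49 and 2 of these. MT2A, a metallothionein that binds zinc, had 1050 UMIs (4027 CPM) at 4 years, against 83 (160.2 CPM) and 92 (321 CPM). The ratios were 25.1 (20.1–31.8) and 12.5 (10.1–15.7). ACTA1, the actin of skeletal muscle, had 55 UMIs, against 19 and 8, and JAM2, a junction molecule, had 39, against 8 and 8. JAM2 stood here at 21.9% of its level in endothelial-like cells of the 4-year library, close to the free RNA limit of 20%. HES1, a target of Notch, had 4 UMIs (15.3 CPM), against 49 (94.6 CPM) and 28 (97.7 CPM), at 0.162 (0.0425–0.442) and 0.157 (0.0400–0.449). RALY, CYBA, ATP5F1D, ENO1 and IGFBP4 were lower as well, each with 1 to 8 UMIs at 4 years. CYBA stood at 14.2% and 23.9% of the class highest in replicates 3 and 4.

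None of the 13 smooth muscle genes was called in mural-like cells. TAGLN, an actin-binding protein of smooth muscle, had 19109 CPM at 4 years, against 12544 and 13233. ACTA2, the smooth muscle actin, had 3747 CPM, against 7422 and 4829.6. CNN1, calponin, had 72.9 CPM, against 722 and 41.9, so the adolescent libraries lay further from each other than from the mature one. In macrophage-like cells, with 59, 54 and 65 cells, 1661 genes were measured, 26 (1.57%) were called higher and 21 (1.26%) lower, and 7.28% stood 4-fold apart at 18 months. Set aside by the free RNA rule were 22 and 3. UBE2T, an enzyme of DNA crosslink repair, had 42 UMIs, against 4 and 5, and RBBP6 had 16, against 129 and 83. UBE2T stood here at 22.7% of its level in spermatocyte-like cells of the 4-year library, close to the free RNA limit. CXCL10, a chemokine that interferon induces, had 9 UMIs, against 66 and 41, at 0.225 (0.0986–0.454) and 0.263 (0.112–0.549), and missed the rule against replicate 4.

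Of 11533 genes measured in spermatogonium-like cells, 95 (0.824%) were called higher and 183 (1.59%) lower, and 5.12% stood 4-fold apart between replicates 3 and 4. Possible free RNA took 91 of the higher and 19 of the lower. The 4-year cells lay mainly in cluster 39 (169 of 219, all of that library) and cluster 26 (41), and the adolescent ones in 15 (434 and 480) and 26 (286 and 74). No gene was called among 13 spermatogonial, 11 synaptonemal or 15 recombination genes. Of 13 immediate early and stress genes 1 was called lower, FOS, with list medians of −1.255 and −0.482. INHA, COL1A2, ERAP1 and TGFB2 were called lower in other lists, all counted before the free RNA rule. PECAM1 passed the fold rule as higher and was set aside as possible free RNA. UCHL1 had 3112 CPM in this class at 4 years, against 1669 and 3797, TKTL1, a transketolase relative, had 876, against 926 and 995, and SYCP1 had 270.6 CPM, against 295 and 197. The 4-year values of UCHL1 and SYCP1 lay between those of the adolescent libraries.

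The lower genes of spermatogonium-like cells included UBE2C, the enzyme that feeds the anaphase-promoting complex, with 4 UMIs (4.67 CPM) at 4 years, against 232 (27.8 CPM) and 146 (47.7 CPM), at 0.168 (0.0453–0.435) and 0.0978 (0.0263–0.256). It was the called one of 15 replication and mitosis genes. PCNA, the sliding clamp of replication, had 30.3 CPM, against 114 and 74.5, at 0.265 (0.172–0.391) and 0.407 (0.260–0.612), and was not called. MRPS24, of the mitochondrial ribosome, had 6 UMIs, against 661 and 236, and PGLS, of the pentose phosphate pathway, had 10, against 755 and 273. The other named lower genes were C9orf16, CTNNBIP1, ZNF22, CHCHD6, HAGHL, GCAT, PLA2G7 and RPUSD3, with 1 to 5 UMIs at 4 years. The sole named higher gene was 5S_rRNA, whose 178 identifiers make its count uncertain. SPATA16, TEKT2, HMGB4 and CRISP2 passed the fold rule here, and all were set aside as possible free RNA.

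Clusters 40 and 41 held cells of the 4-year library that met no class name. Cluster 41 (213 cells, median 1262 UMIs) carried stroma and muscle genes together. OGN, a leucine-rich proteoglycan, had 1122 CPM there, against 1380 and 197 CPM in the stroma-like cells of replicates 3 and 4, and PDGFRA, a growth factor receptor of stroma, had 319 CPM, against 165 and 84.2. TAGLN had 4806 CPM, against 539 and 489, and MYH11, the smooth muscle myosin, had 878.5 CPM, against 69.8 and 17.25. DCN had 427 CPM, against 904 and 935.

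Cluster 40 (67 cells, median 678 UMIs) held Sertoli genes beside spermatid genes. INHA had 67 UMIs (1224 CPM) there, against 4253 and 6153 CPM in the Sertoli-like cells at 18 months. CITED1, a transcription cofactor, had 41 UMIs (749 CPM), against 58.5 and 201. SOX9 had 146 CPM, against 796 and 449, and FSHR had 2 UMIs. The 14 genes of the Sertoli list summed to 2394 CPM (2001–2840), against 5378 and 7062. Its acrosome genes summed to 950.1 CPM (709.6–1246), and their part in these levels was not tested.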

How the data were processed

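The deposited files hold raw UMI counts per gene and barcode for each library. The authors made these counts with Cell Ranger 5.0.0, per the file headers, while the submitters' processing notes name version 2.1.1. No genome build is named in the headers, labels or notes used, none of the gene identifiers matched the reference table, and gene names are those of the deposited files. Of 26961 features, 15722 have a symbol and 11239 an identifier alone. Identifiers that share a symbol were kept apart, so each call of U1, U2, Metazoa_SRP or 5S_rRNA is that of a single identifier.

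Kept barcodes had 300 genes or more and no more than 20% of UMIs on the 37 mitochondrial features. All 6 libraries were clustered together with scanpy 1.11.5 (Leiden, resolution 2, 2000 variable genes, 30 principal components, 15 neighbours, seed 0). A cluster was named "-like" when at least 3 markers of 1 of 15 lists were raised 2-fold, these made up 0.333 or more of the list, and the list stood ahead of any other by 0.5 (mean log2 fold of its markers) or 0.2 (share of markers raised); a cluster with more markers of another class than of its own among its top 10 genes stayed unnamed. Scrublet marked 1, 2 and 163 barcodes in the 4-year library and replicates 3 and 4, which was read as a failure, so doublets stayed in and their removal by rank is an alternative. Counts were summed per library (50 UMIs or more) and per class (30 UMIs or more) and divided by their total. Ratios have exact conditional 95% intervals (scipy 1.17.1), and shares have exact Clopper-Pearson ones. The ratio and call rule, and no other step, was run on simulated counts. These held counting error alone and none of the spread between real libraries. The named genes are the 15 in each direction with the greatest smaller ratio and at least 100 UMIs on the higher side, and within a class the 10 with at least 30, beside members of 28 gene lists. A member of the Sertoli list is not reported here. The members and lists were chosen with earlier results of these data known. Intervals cover counting error only. Alternatives were TMM scaling (edgeR 4.0.16), other barcode and count filters, doublet removal, other clusterings and leaving out each 18-month library.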

Additional observations from a re-analysis of the deposited data

How the results depend on the processing

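No test was made. The endothelial-like share turned at the stricter filter, to 21.4% at 4 years, against 39.04% and 28.7%, and the mural-like share at up to 40% mitochondrial UMIs, to 5.29%, against 4.50% and 3.50%. At the stricter barcode filter the mean of the medians against replicates 3 and 4 changed sign for the steroid synthesis and endothelial lists, to 0.33 and −0.215. These lists had 1 and 3 called genes. Their medians had differed in sign between the replicates before, at 0.129 and −0.630 (steroid synthesis) and at −0.034 and 0.655 (endothelial). The 1478 higher and 511 lower genes of whole libraries stayed within 1.5 times under TMM scaling, totals without mitochondrial features, no count filter, either barcode filter and doublet removal. Leaving out an 18-month library in turn gave 1612 to 2392 higher genes (the most without replicate 3) and 664 to 1765 lower (the most without replicate 4). Without the spermatocyte-like and spermatid-like cells of the 4-year library, a choice made after seeing the data, 463 were higher and 280 lower.

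Within classes, higher and lower counts with no filter on low counts were 1022 and 134 in endothelial-like and 627 and 250 in lymphocyte-like cells. They were 136 and 85 in macrophage-like and 208 and 141 in mural-like cells. In spermatogonium-like cells 1711 were higher, where more genes were tested. Those cells held 857442 UMIs at 4 years, against 8344402 and 3061210. With the floor of 3 UMIs, a gene with no UMI at 4 years could thus be called higher, so the 1711 cannot be read as genes raised at 4 years. Leaving out an 18-month library in turn gave 753 to 910 higher and 118 to 328 lower endothelial-like calls. The ranges were 486 to 632 and 141 to 311 in lymphocyte-like, 53 to 64 and 42 to 87 in macrophage-like, 101 to 118 and 77 to 202 in mural-like, and 147 to 339 and 242 to 734 in spermatogonium-like cells. In every class the greatest lower count came without replicate 4. TMM scaling gave 33 lower genes in macrophage-like cells. With doublets removed 35 genes were higher in spermatogonium-like cells, and mural-like cells gave no value, since 2 cells at 4 years kept the name. Another 127 cells of that library then lay in a cluster whose mural markers had no lead over endothelial ones.

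The germ share of the 4-year library was 35.2% with doublets removed, 31.7% at up to 40% mitochondrial UMIs, 61.7% at 500 genes and 10%, and 34.6% with the 3 libraries clustered alone. Replicate 3 had 13.8% at up to 40%, and replicate 4 had 13.4% and, at the stricter filter, 16.4%. Of germ cells at 4 years, spermatogonium-like, spermatocyte-like and spermatid-like shares were 3.86%, 50.6% and 45.5% with doublets removed, 3.27%, 50.9% and 45.8% at up to 40%, and 14%, 37.7% and 48.4% clustered alone. With doublets removed and at up to 40% the rule left most spermatogonium-like cells of that library unnamed. The cause of the other shifts was not tested. Median depth of 1265 to 2862 UMIs in the named classes at 4 years limits genes of low level. No paired analysis was possible because the replicate numbers of the ages do not overlap.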
